A study of Mus musculus with 2 samples.

Results

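TEC is a gene type of the GENCODE annotation, given to loci that await experimental support, most of them single-exon models drawn from clusters of expressed sequence tags with features of a polyadenylated end. The tables list 3213 genes whose transcripts are all of this type, among 55536 genes. They were ranked by the mean expected count over both libraries, a read number that a quantifier estimates and that can be fractional, and the highest 200 are described here. These loci were chosen by their expected counts, so their levels are a description and carry no test.

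Both libraries hold ribosome-depleted total RNA of the nucleoplasmic fraction of bone-marrow-derived macrophages from C57BL/6J mice, which are macrophages grown from marrow precursors in culture. The cells had received Lipid A, the part of bacterial lipopolysaccharide that TLR4 senses, at 100 ng/ml for 12 h, then a washout of 12 h, then a repeat dose of 100 ng/ml for 10 min. Biological replicates 1 and 2 of this condition were made from 1 µg and 500 ng. They carry the same donor identifier, sex and age were not collected, and nothing says whether separate animals or cultures were used, so the spread between the libraries may be technical. With 1 group the design holds no contrast between conditions, and the smallest two-sided p that an exact test of 2 libraries can give is p = 0.5.

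Nuclear RNA of this kind holds unspliced transcripts next to finished ones. A transcript read through a long gene carries its introns until the splicing machinery removes them, and loci annotated inside an intron on the same strand cannot be separated from the intron itself by sequence. A finished mRNA is usually cut downstream of the poly(A) signal, the hexamer AATAAA or its variant ATTAAA, and then receives its tail.

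The last 60 bases of 7 loci are printed from the GENCODE M21 transcripts on mm10, 5′ to 3′, to show how the annotated ends of abundant loci look with and without such a hexamer. Capitals mark the hexamer nearest the end within the last 40 bases.
Gm43197, chr6:3336772-3336831, minus strand: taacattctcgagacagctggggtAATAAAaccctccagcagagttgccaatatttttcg
A130071D04Rik, chr1:138161820-138161879, minus strand: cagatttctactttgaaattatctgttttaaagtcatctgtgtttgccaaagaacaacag
Gm37589, chr3:60539685-60539744, plus strand: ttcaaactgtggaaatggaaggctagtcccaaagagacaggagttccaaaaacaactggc
9430034N14Rik, chr1:156026223-156026282, minus strand: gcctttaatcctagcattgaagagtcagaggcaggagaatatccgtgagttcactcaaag
Gm37033, chr1:180364939-180364998, plus strand: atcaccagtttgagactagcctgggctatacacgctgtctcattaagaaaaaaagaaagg
Gm45222, chr7:90150195-90150254, plus strand: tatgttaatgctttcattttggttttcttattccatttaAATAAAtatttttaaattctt
Gm42547, chr6:28211008-28211067, minus strand: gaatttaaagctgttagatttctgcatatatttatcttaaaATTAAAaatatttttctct
Gm43197 and Gm45222 end near an AATAAA, and Gm42547 near an ATTAAA. The other 4 hold neither hexamer in that window, and Gm37033 ends in a run rich in A.

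A second pair of sequences concerns 1 locus, Gm37376, which is described separately below. Its first 60 bases and the stretch of Malat1 over the same positions, read from the opposite strand, are reverse complements of each other.
Gm37376, chr19:5801941-5802000, plus strand: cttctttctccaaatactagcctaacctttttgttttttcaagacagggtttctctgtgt
Malat1, chr19:5801941-5802000, minus strand: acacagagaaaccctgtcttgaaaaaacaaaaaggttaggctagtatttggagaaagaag

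The gene totals of replicates 1 and 2 were 24444219 and 18051097 expected counts. All 6 macrophage markers were detected, at 45.4 to 968 TPM, where TPM is the authors' level per length, scaled to a fixed total, and detection asks for 1 TPM and 10 counts or more in each library. None of the 4 markers each of B cells, T cells, neutrophils and fibroblasts was detected. Of 4 endothelial markers 2 were detected, Pecam1 and Kdr, and the 4 summed to 14.6 TPM in replicate 1 and 6.44 in replicate 2; their part in the levels below was not tested. All 4 nuclear RNAs that were looked up, Malat1, Neat1, Xist and Kcnq1ot1, were detected. In such bulk samples fewer cells of a type and less RNA per cell cannot be told apart.

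The 200 loci held a small part of the reads and most of what the class received. Their counts summed to 129601 in replicate 1 and 109812 in replicate 2. That was 0.530% of the gene counts in replicate 1 (exact 95% binomial interval 0.527% to 0.533%) and 0.608% in replicate 2 (0.605% to 0.612%), or 0.569% ± 0.0553 (SD, n = 2). These intervals cover counting error only, and they do not overlap. Of all counts on TEC genes the 200 took 61.8% and 60.5%, and 1469 TEC genes had no count in either library. Of the members, 199 were detected in both libraries, against 633 of all TEC genes, and the exception was Gm37376.

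**Figure D1:**
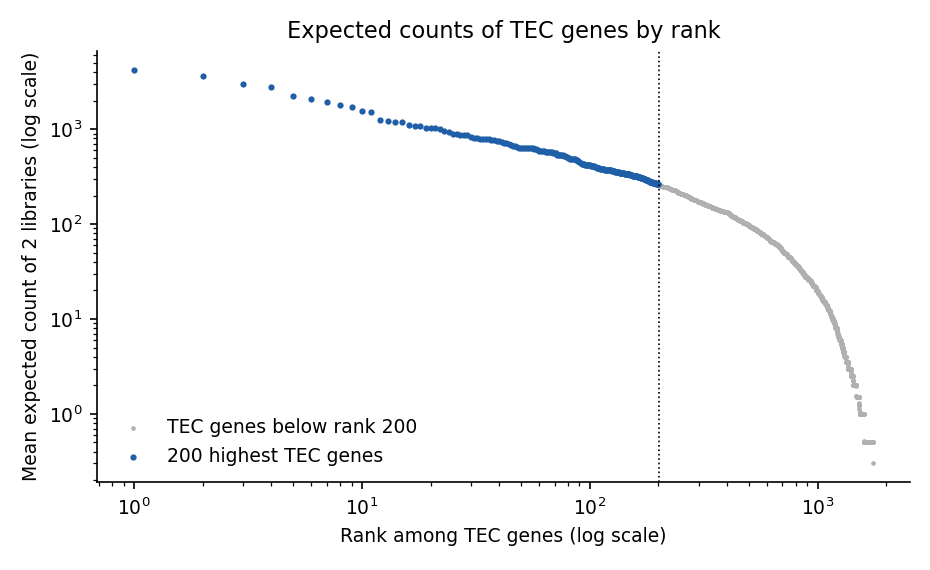
Mean expected count of each TEC gene (vertical axis, reads, log scale) against its rank (horizontal axis, log scale), with the 200 highest in blue and the others with a count above 0 in grey. The counts fall without a step at the dotted line, from 264.5 at rank 200 to 261.0 at the next gene.

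Per length, these were modest transcripts. The median TPM of the members was 4.54 in replicate 1 and 5.24 in replicate 2, or 4.89 ± 0.495 (SD of the medians, n = 2), beside a median of 7.98 over the 9443 detected protein-coding genes. The 2 sets are not matched. Detection asks for only 1 TPM and 10 counts, whereas the lowest member had a mean count of 264.5. A mean TPM of 5 or more was reached by 95 members, of 10 or more by 26 and of 20 or more by 6. All 200 are annotated with 1 transcript of 1 exon. Their median length was 3011 bases, against 2067 bases for the 966 TEC genes below rank 200 with a mean count of at least 10. Counts grow with length, and across the 200 members the rank correlation of length and mean count was 0.29, over points that share both libraries.

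The highest locus by count was 9330162G02Rik (ENSMUSG00000109536.1, chr7:59223847-59254788, minus strand), with 4017 counts in replicate 1 and 4315 in replicate 2. It is also the longest, at 30942 bases, and lies opposite Ube3a, the gene of an E3 ubiquitin ligase. On the TPM scale, which divides by length, it stood at 3.29 and 5.06. Its rank by count therefore came with a level below the members' median TPM in both libraries.

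Gm43197 (ENSMUSG00000107215.1, chr6:3336772-3339354, minus strand) had 4560 and 2669 counts, and its TPM of 48.5 and 40.7 was the highest of any member listed above 0 in both libraries. It lies in an intron of Gm20559, a noncoding transcript that itself stood at 246.6 and 306.7 TPM. A130071D04Rik (ENSMUSG00000104291.1, chr1:138161820-138167683) had 3453 and 2606 counts. It lies in an intron of Ptprc, which encodes the leukocyte phosphatase CD45. Gm37589 (ENSMUSG00000104235.1, chr3:60535751-60539744) followed with 3083 and 2494 counts. Its host is Mbnl1, a regulator of alternative splicing.

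The next loci by count were intronic as well. The locus 9430034N14Rik, in an intron of Tor1aip1 (a protein of the inner nuclear membrane), had 2647 and 1816 counts. Gm37033 had 2676 and 1533 counts and lies in an intron of Itpkb, an inositol trisphosphate kinase. Gm37084 had 1997 and 1570 counts and lies in an intron of Mapkapk2, a kinase that acts downstream of p38. None of these 3 loci had reads divided with another gene.

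Gm49759, which reaches into exons of the pyruvate kinase gene Pkm, had 1878 and 1585 counts. Gm37472 had 1835 and 1291 counts and lies in an intron of Dleu2, a long noncoding RNA that also hosts microRNAs. Gm37376 completes the highest 10 at rank 7 with 0 counts in replicate 1 and 3910 in replicate 2. Each of the highest 10 except Gm37376 had more counts in both libraries than the median member. The ranking used these same counts, so this is no separate result.

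By mean TPM the order changed. Gm37376 was listed at 0 and 606.9 TPM, so its mean of 303 rests on replicate 2 alone. After it and Gm43197 came Gm37589 at 20.6 and 23.8 TPM, Gm45640 at 20.8 and 20.8, and Gm43071 at 16.1 and 24.1. Gm45640 lies in an intron of Chd9, a chromatin remodeller, and Gm43071 in an intron of Dram2, a lysosomal membrane protein with a role in autophagy. At the other end, C130023A14Rik and Gm43421 tied for the last places with a mean count of 264.5, and Gm44434, just outside, had 261.0.

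Most members lay inside other genes, a property that the ranking did not use. An intron of a gene on the same strand, with no exon touched, held 143 members (71.5%). Another 14 (7.0%) overlapped an exon on the same strand. On the opposite strand only, 17 (8.50%) overlapped an exon and 14 (7.0%) an intron. No annotated gene other than a TEC gene overlapped the remaining 12 (6.00%).

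In the ranking by expected count, lower-ranked TEC genes were placed differently. A gene on the same strand was overlapped by 157 members (78.5%), by 66.4% of the 966 genes below rank 200 with at least 10 counts, and by 44.7% of the 2047 with fewer. The share that overlapped no gene ran the other way, at 6.00%, 14.3% and 39.5%. These shares are counts over the annotation and were not tested. Ranked by the second deposited quantification, described below, 133 of the highest 200 overlapped a gene on the same strand. The contrast with the 966 may therefore depend on the quantification that ranks, and the lower groups were not formed anew for that ranking.

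**Figure D2:**
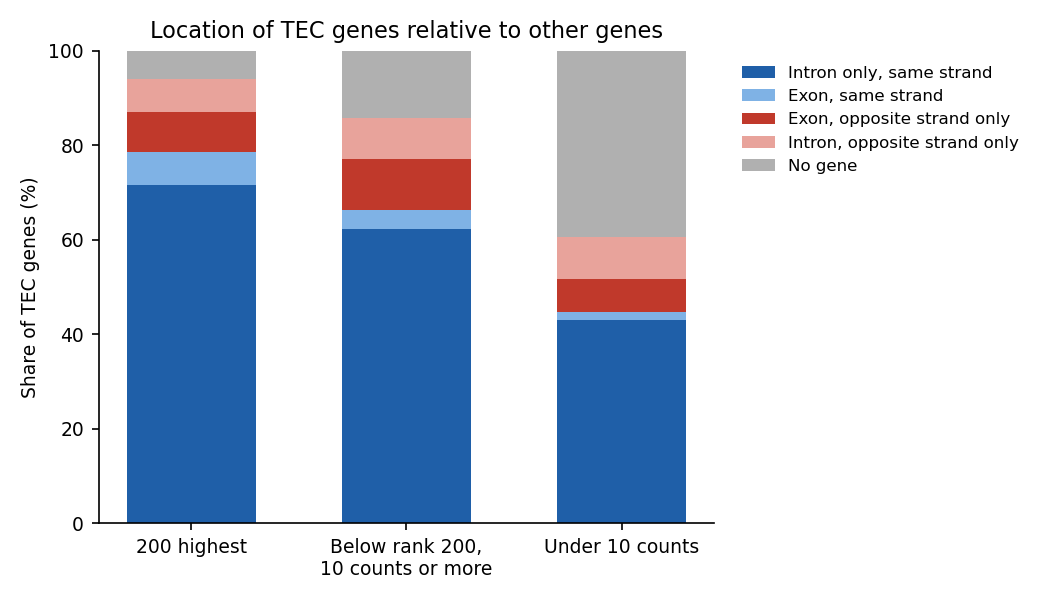
Share of TEC genes (vertical axis, %) in each location relative to genes that are not TEC, for the 200 highest, the 966 others with 10 counts or more and the 2047 with fewer. The intronic share on the same strand falls from 71.5% in the 200 highest to 42.9% in the last group, and the grey share without a gene grows from 6.00% to 39.5%.

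The 157 members on the strand of another gene sat in 126 distinct host genes, of which 114 are protein-coding. A single member lay in 105 hosts and 2 lay in each of 15. The other 6 hosts held 3 or 4. Camk2d (a calcium/calmodulin-dependent kinase), Cers6 (a ceramide synthase), Fli1 (an ETS transcription factor of blood cells) and Picalm (a clathrin assembly protein) held 4 each. Dennd1b, which activates a Rab protein, and the noncoding Gm4258 held 3 each.

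Host genes of intronic members were detected in almost every case. Among their 114 distinct hosts, 112 (98.2%) were detected, at a median of 22.0 TPM. For the intronic TEC genes below rank 200 with at least 10 counts, 88.1% of the hosts were detected, at a median of 8.21 TPM. For those with fewer counts it was 12.7%, at a median of 0.0050 TPM. The median span of the hosts was 86182, 91074 and 135547 bases in the same order.

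An intronic member usually stood below its host. Its mean TPM was at the median 20.3% of the host's (quartiles 13.8% and 35.1%), and 3 of 143 members stood above their host. Gm47087 is 1 of them, at 3.49 and 5.63 TPM in an intron of Maml2, a coactivator of Notch signalling at 1.86 and 2.44 TPM. The locus 6430511E19Rik, at 5.26 and 4.98 TPM, lies in Gm26944 at 1.75 and 0.88 TPM. The locus 2310043P16Rik, at 5.62 and 3.34 TPM, lies in Gm12764, listed at 1.86 and 0 TPM. Both of these hosts are annotated as antisense genes.

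Members in higher hosts tended to stand higher. Across the 143 intronic members, Spearman's rho between the member's and the host's mean TPM was 0.52, and across all 739 intronic TEC genes with at least 10 counts and a host above 0 it was 0.70. These are descriptions across genes of the same 2 libraries, in which several members share a host. The ranking kept only genes of high counts and so narrows the range of the members.

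**Figure D3:**
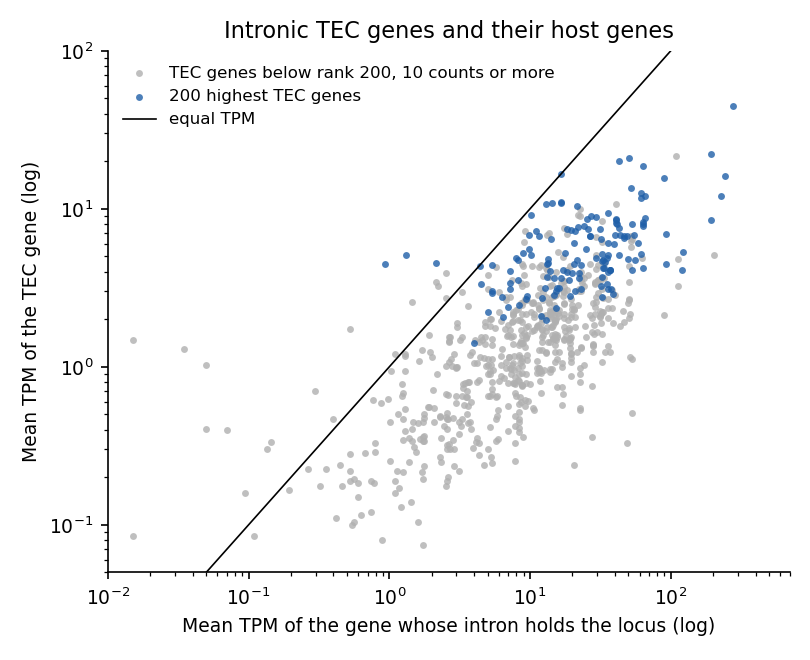
Mean TPM of each intronic TEC gene (vertical axis, log scale) against the mean TPM of its host gene (horizontal axis, log scale), for members in blue and for lower-ranked genes with at least 10 counts in grey. Nearly all points lie below the line of equal TPM, with 3 blue points above it.

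Members lay more often near the start of their host. On a scale from 0 at the host's start to 1 at its end, the median position of the intronic members was 0.308, and 92 of 143 (64.3%) lay below 0.5. For the intronic TEC genes below rank 200 with at least 10 counts the median was 0.415 and the share 58.6%. For those with fewer counts the values were 0.441 and 56.0%. Over the intronic members, rho between position and the member's share of the host's TPM was −0.13.

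In 19 hosts with several intronic members, which carry 48 members, the member nearest the start was compared with the one nearest the end by mean TPM. The first stood above the last in 16 hosts, the exceptions being Trip12, Dock10 and Dennd1b. This order of means did not always hold in each library. In Gm4258 the first locus, Gm37298, had 2.6 and 3.48 TPM and the last, Gm37534, 2.9 and 2.93. How many hosts kept their order in both libraries was not counted. By mean TPM the first locus was the highest of all members of its host in 13 of the 19. Among the 6 hosts with 3 or more it was so in only 2, Fli1 and Cers6. In Fli1 the 4 loci from start to end stood at 14.3 and 18.7 TPM (Gm37082), 10.1 and 11.6 (Gm37474), 10.5 and 11.6 (Gm38346), and 2.98 and 4.31 (Gm38292), in replicates 1 and 2. The last of the 4 lay below the other 3 in both libraries, while Gm37474 and Gm38346 did not differ beyond their spread.

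In other hosts a later locus was as high as the first or higher. In Camk2d the 4 loci from start to end had 4.63 and 5.64 TPM (Gm43011), 5.3 and 6.85 (Gm43010), 3.28 and 4.69 (Gm43009), and 2.66 and 3.6 (Gm42515), so that the second was above the first in both libraries. In Picalm they had 5.69 and 9.78 TPM (Gm45223), 5.86 and 10.5 (Gm45222), 5.0 and 10.9 (Gm45221), and 3.37 and 5.09 (Gm45220). The first 3 of Picalm did not differ beyond their spread, and the last was the lowest in both libraries. In Dennd1b the first and last loci, Gm37470 and Gm37718, had 4.03 and 4.13 TPM against 4.39 and 3.78, values that overlap between the libraries.

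**Figure D4:**
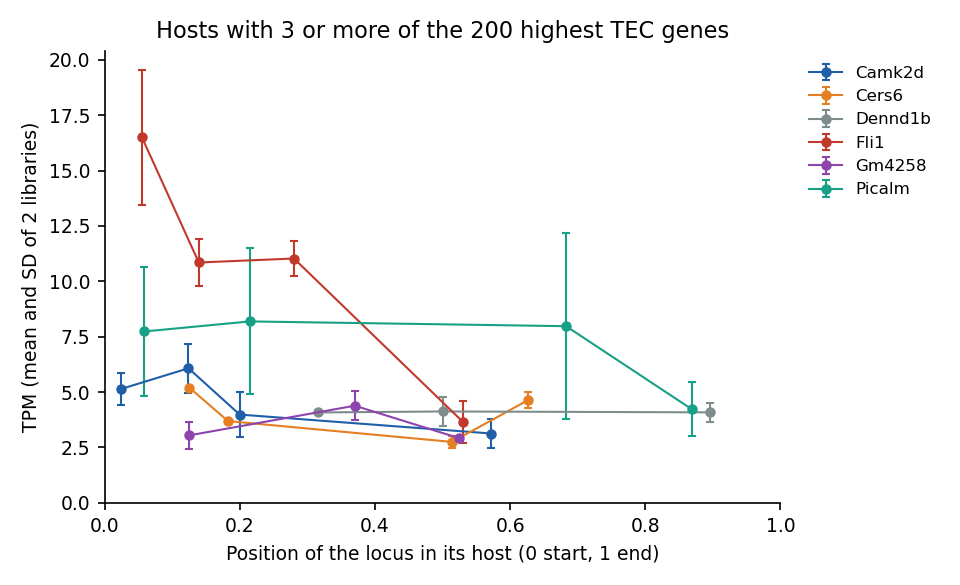
TPM of each member (vertical axis, mean and SD of 2 libraries) against its position in the host gene (horizontal axis, 0 start, 1 end), with 1 line for each of the 6 hosts that hold 3 or more members. The line of Fli1 falls from its first to its last locus, and that of Dennd1b is level.

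Where a locus shares sequence with another transcript, a quantifier must divide reads. The deposited gene tables give an SD of each count that comes from this division, and it was above 0 for 28 of the 200 members. These were 10 of the 14 that overlap an exon on the same strand and 12 of the 17 that overlap an exon on the opposite strand. Among the 143 intronic members there were 4, among the 14 opposite an intron 0, and among the 12 outside genes 2. The SD was small beside the count in 25 of the 28, at 0.00953% to 2.77% of it with a median of 0.383%. The other 3 were Gm37376 and the identical pair Gm20236 and Gm37094, described below.

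Reads were also divided across strands. Among TEC genes with at least 10 counts, 91 share 31-base words with other transcripts on the opposite strand only, and 48 of them had divided reads. None of the 315 that share no such word had any, 43 members among them. The strandedness of the libraries is not given in the sources used here, so reads of a member and of a gene opposite it cannot be told apart.

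Overlap with exons was short. None of the 14 members on the same strand as an exon had 50% or more of its length in exons. The highest of them after Gm49759 was Gm43323 in Rbm47, an RNA-binding protein gene, with 1676 and 1368 counts and 276 of its 4258 bases in exons. Gm42793 overlaps exons of Spp1, which encodes osteopontin, by 309 of its 1252 bases. Gm38020 lies in Ftx, a noncoding RNA of the X inactivation centre, with 297 and 283 counts. C130023A14Rik shares only 4 bases with a microRNA exon inside Mir99ahg.

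Of the 31 members opposite another gene only, the highest 3 were 9330162G02Rik, Gm37376 and Gm42549. Gm42549 had 1120 and 634 counts, 4.16 and 3.37 TPM, and lies opposite an intron of 6530409C15Rik at 7.48 and 6.83 TPM. Gm49338 covers 951 bases of exon opposite Bace1, the beta-secretase gene, in a length of 2079. It stood at 5.52 and 5.05 TPM beside 5.06 and 5.92 for Bace1.

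Among the 12 members that overlap no gene, Gm37226 was the highest with 1291 and 1192 counts, and 74.0% of its 31-base words occur in other transcripts. It begins 2416 bases downstream of the end of Mthfsl. Gm42547 followed with 844 and 568 counts, 25122 bases downstream of Zfp800, a zinc finger gene. Gm37320 had 744 and 532 counts, and Gm37352 had 706 and 550. Gm44250 had 442 and 594 counts and begins 366 bases downstream of Pon3, a paraoxonase gene at 6.74 and 9.43 TPM. It was the only 1 of these 5 with the higher raw count in replicate 2, the library of lower total.

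Gm20236 and Gm37094 have an identical sequence of 4540 bases at 2 places on chromosome 14 (69277601 to 69282140 and 69495851 to 69500390). Each was given 539.5 counts in replicate 1 and 427.5 in replicate 2, with an SD from read division of 313 and 237. They lie in introns of Slc25a37 (mitoferrin, a mitochondrial iron carrier, at 34.4 and 36.5 TPM) and of Gm16867 (5.53 and 3.41 TPM). Their reads cannot be assigned to either copy, and only the sum over both copies is measured.

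The replicates were close for nearly all members. The log2 ratio of replicate 2 over replicate 1, from counts normalised by TMM (a scaling that centres most genes at no difference), had a median of 0.03 with quartiles −0.24 and 0.29, and 104 of 200 lay above 0. Past 2-fold were 2 members that were higher in replicate 2, Gm37376 and Gm42793, and 0 that were lower. Gm37376 had 0 counts in replicate 1, and no fold is given for it below. Without it, 1 of 199 members (0.503%) lay past 2-fold. Over the 7327 genes of any type with at least the lowest member's mean count, 0.382% were past 2-fold higher and 2.1% lower, so that 2.48% lay past 2-fold in either direction against 1.00% of members. Counting error alone gave a 95% interval of the ratio that held 0 for 73 members, lay above 0 for 63 and below 0 for 64.

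Single loci set the spread. Without Gm37376 the SD of the ratio over the other 199 members was 0.39. The correlation of log2 counts between the libraries across members was r = 0.46 and rho = 0.76 with Gm37376, and r = 0.88 and rho = 0.79 without it, as a description over loci of the same 2 libraries. Over the 7327 genes of a wider range of counts it was r = 0.96.

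Gm42793, in Spp1, had 218 counts in replicate 1 and 473 in replicate 2, a log2 ratio of 1.39 (counting interval 1.16 to 1.63). Spp1 stood at 154 and 227 TPM, with a log2 ratio of 0.31. No member was past 2-fold lower, and the nearest was 2310043P16Rik with 818 and 339 counts, which passes it with a log2 ratio of −1.01 when TMM is taken without the filter on low counts. Its host Gm12764 was listed at 0 TPM in replicate 2.

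The replicate ratios of members and of their hosts were compared as a description. Over the 141 intronic members whose host had a mean count of at least 50, rho between the 2 log2 ratios was 0.60. The member's ratio was above the host's in 93 of the 141, and the median difference over all 141 was 0.11. In Picalm all 4 loci had ratios of 0.35 to 0.88, and the host 0.43. In Prkcb, a protein kinase C gene, both loci had ratios of −0.96 and −0.54, and the host −0.72. In Camk2d, however, the 4 loci had ratios of 0.04 to 0.27 and the host −0.20. The loci of 12 of the 19 hosts with several intronic members all lay on the same side of 0. In 9 of these the host lay on that side too, and in 3, Camk2d, Med13l and A330023F24Rik, on the other. No such count was taken for unrelated loci, which can also share a side, so nothing is read from the 12. The median range within a host was 0.28, and the interquartile range over the 200 was 0.53. These are unlike measures, since most of the 19 hosts hold only 2 intronic members. No closeness within hosts is read from them.

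**Figure D5:**
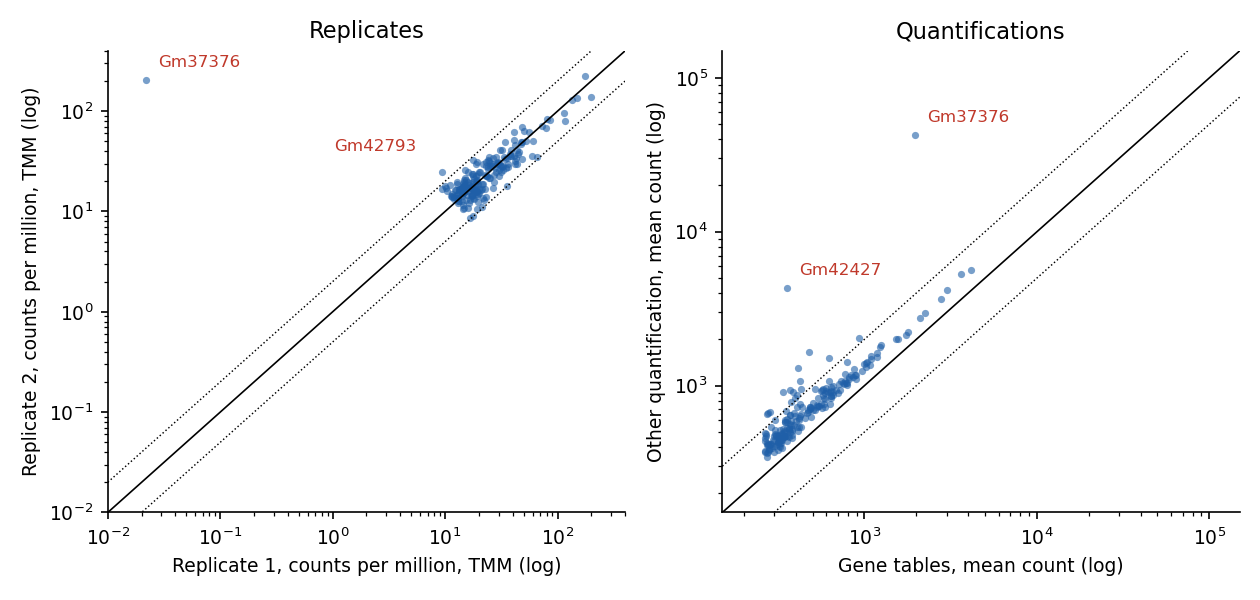
Left, TMM-normalised counts (CPM) of the 200 members with 0.5 added to each count (log scales), replicate 2 against replicate 1; right, mean count of both libraries in the other quantification against the gene tables (log scales). Solid lines mark equal values and dotted lines 2-fold, and Gm37376 lies far from most other members in both panels. Also labelled are Gm42793, past 2-fold on the left, and Gm42427, 1 of the 17 members past 2-fold on the right.

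The authors deposited a second quantification per library, made directly from reads and an index, which is called the other quantification here. It comes from the same reads, so a difference is between methods, and ranking by the gene tables favours loci that these set high. Its gene totals were larger, 32762245 and 30438850 counts. All 200 members had more counts in it, as did 99.6% of 7324 genes with at least the lowest member's mean count, and the median log2 ratio was 0.51 beside 0.48 over those genes. Past 2-fold higher were 17 members (8.50%) and lower 0, against 3.74% and 0.123% of those genes (3.86% in either direction). Scaled by each library's gene total, the members' median was −0.076 beside −0.10 over those genes, and 4 members were past 2-fold higher and 0 lower, against 0.778% and 0.218% (0.997% in either direction).

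Those 4 were Gm37376, Gm42427, Gm43633 and Gm47445. Gm42427, which overlaps no gene, had 384 and 324 counts in the gene tables and 4227 and 4433 in the other quantification, a log2 ratio of 3.61. Of its 31-base words 53.2% occur in other transcripts. Gm43633 in an intron of Parp11 had 522 and 437 counts against 1642 and 1682. Gm47445 in an intron of Dse, an enzyme of dermatan sulfate synthesis, had 447 and 380 against 1112 and 1479.

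Gm37010, in an intron of the immune receptor gene Cd48, is next by raw counts with 371 and 302 against 861 and 943. The 17 members past 2-fold in counts had a median of 6.06% of their words in other transcripts, and the 183 within 2-fold had 1.5%. Across the 200, rho between this percentage and the log2 ratio was 0.34. Only 2 of the 17 had divided reads in the gene tables, so a shared word and a divided read are not the same measure.

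Gm37376 was the least certain of the loci. It spans 453 bases (chr19:5801941-5802393, plus strand) inside Malat1, a nuclear long noncoding RNA on the minus strand, and is the exact reverse complement of bases 280 to 732 of its 6983-base transcript. The gene tables gave it 0 counts in replicate 1 and 3910 in replicate 2, with an SD from read division of 14.2 and 244. No fold is given, since the SD of 14.2 in replicate 1 lies well above its count of 0. The other quantification gave it 40242 and 45120 counts, which do not differ by 2-fold.

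Malat1 itself had 2634838 and 1760388 counts in the gene tables, with a log2 ratio of −0.31. Of the counts on Malat1 and Gm37376 together, the locus received 0% and 0.222% in the gene tables, and 1.45% and 1.92% in the other quantification. In each table the locus thus received a small share of the pair's reads. How many of these reads came from the plus strand was not tested.

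Of 104 genes on 4 lists that describe this system, 5 (4.81%) overlapped a member on either strand, beside 149 (1.39%) of the 10694 detected genes that are not TEC. With 5 genes nothing is read from this difference. Of 22 genes of macrophage identity, all detected, none overlapped a member, and none overlapped any TEC gene. Of 30 interferon-stimulated genes, all detected, 1 did: Gm49730 reaches into exons of Parp14, an interferon-induced ADP-ribosyltransferase. It had 1519 counts in replicate 1 and 668 in replicate 2, a log2 ratio of −0.91, where Parp14 had −0.37. At 24.6 and 15.5 TPM it stood far below Parp14 at 299 and 261 TPM.

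Of 36 genes of inflammatory signalling, 34 of them detected, 2 overlapped a member. Gm43430, at 4.52 and 4.67 TPM, lies in an intron of Nfkb1, the gene of the p105 precursor of NF-κB p50, at 33.4 and 35.2 TPM. Gm43963, at 4.33 and 4.37 TPM, lies opposite an exon of Irak2, a kinase that acts below Toll-like receptors, at 25.4 and 19.2 TPM. Of 16 genes of nuclear RNA and RNA processing 2 did, Malat1 with Gm37376 and Kmt2a, a histone methyltransferase, with the intronic Gm48314. Gm48314 stood at 3.40 and 4.85 TPM beside 14.3 and 19.9 for Kmt2a.

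The share of annotated ends with a poly(A) signal was lower in the members than in other TEC genes, a difference that was not tested. AATAAA or ATTAAA on the transcript's strand occurred in the last 40 bases of 38 members (19.0%), of 30.3% of the 966 with at least 10 counts and of 26.9% of the 2047 with fewer. In the longest transcripts of 21897 protein-coding genes the share was 70.0%. In windows of 40 bases from the middle of the same sequences, the shares were 2.50%, 4.66%, 4.79% and 2.23% in this order. AATAAA was present in 27 of the 38 and ATTAAA in 11.

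Among the 143 intronic members the share with a hexamer was 15.4%. In the last 20 bases, 12 or more A were present in 22 members (11.0%), in 10.5% and 8.06% of the lower-ranked TEC genes and in 8.4% of the protein-coding transcripts. Gm43197, Gm45222 and Gm42547, printed above, are among the 38, and Gm37033, with 13 A in its last 20 bases, is among the 22. A match to these letters describes the sequence and does not show that the end is used, and a window without them says nothing of how a transcript ends.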

How the data were processed

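Ribosome-depleted nuclear RNA of 2 libraries in 1 group was analysed. Per the deposited file descriptions, the authors' tables refer to mm10 and GENCODE M21; for the aligner, quantifiers, versions and strandedness the entry is: not given in the sources used here. The deposited gene tables give an expected count, a TPM and, per the file headers, the SD of the count from read division (posterior SD, other unit); a second deposited table gives an estimated count and TPM per transcript, summed here per gene. Entries that name no gene (1.06% and 0.245% of counts) were left out.

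Genes whose transcripts are all TEC were ranked by mean expected count. Locations and sequences came from GENCODE M21. Where several genes overlapped, the host was the gene with the longest overlap. Among equal overlaps it was the gene with the highest mean expected count, which favours detected hosts. Expected counts were rounded, scaled with edgeR 4.0.16 TMM in R 4.3.3 using genes whose mean count reached 10, with 0.5 added; the script was checked on simulated data. Python 3.11.15 did the rest. Alternatives included DESeq2 1.42.0 size factors, CPM, TPM and leaving out a replicate. No genome sequence was used here, so A content after the annotated end was replaced by that of the last 20 bases.

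Loci are named by rule: the highest by count and TPM, those at the threshold, those past 2-fold, genes holding several, those on the lists, and the highest opposite or outside genes. Gm49338, Gm43323, Gm38020, Gm45222, Gm20236, Gm37094, Prkcb and the 3 loci above their host were named after their values were seen. The members and lists were chosen with earlier results of these data known. With 2 libraries no test was made.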

Additional observations from a re-analysis of the deposited data

How the results depend on the processing

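Of 46 alternatives to 12 results, 27 moved a value by less than its tolerance (1 SD over replicates, 0.1 on the log2 scale, or 1.5 times for a count). With that SD, leaving out 1 of 2 replicates must keep the median TPM within tolerance, and nearly must keep the share. Those outcomes were fixed in advance. The tolerance for counts also passes the ranking by TPM, which shared 140 of the 200. The 27 is therefore no measure of robustness. The choice of members depended most on the quantification: ranked by the other quantification, 126 of the 200 were shared and their share of gene counts in the gene tables was 0.470%; ranked by TPM, 140 were shared and the median TPM was 6.06. Ranked in replicate 1 or 2 alone, 189 and 186 were shared. A gene on the same strand was overlapped by 133 of the 200 ranked by the other quantification. It was 157 both in the main ranking and by TPM, and these 2 alternatives were chosen after seeing the data. The members' median TPM was 2.50 in the other quantification. The median log2 ratio between replicates was 0.19 scaled by library total and 0.27 in TPM, which move the median of all genes to 0.16 and 0.23. Members past 2-fold were then 4 and 5 of 200, all higher. Over all 7327 genes, 59 were past 2-fold higher and 95 lower by library total, and 133 higher and 69 lower in TPM. With no filter on low counts for TMM the members past 2-fold were 3, of which 2 higher and 1 lower (2310043P16Rik). In the other quantification they were 3, of which 1 higher and 2 lower, and without Gm37376, an alternative chosen after seeing the data, 1. No share over all genes was taken without the filter or in the other quantification. The other quantification over the gene tables had a median of −0.076 scaled by gene totals, with 4 past 2-fold. In TPM it was −0.98, with 90 members past 2-fold (2 higher, 88 lower). Over all 7324 genes the median in TPM was −0.81, with 32 past 2-fold higher and 1955 lower. With a replicate left out the members' median ranged from 0.35 to 0.68 and their count past 2-fold from 11 to 29, with no share over all genes taken. No member had 50% of its length in exons on its strand (0 against 14), and 3 of the 5 members at genes of the lists were on the same strand, also chosen after seeing the data. The cause of these shifts was not tested. No paired analysis was possible because the series holds 1 group. A content beyond the annotated end was not run.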
